A study of Homo sapiens with 6 samples.

Results

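Iron uptake, storage and export were followed through 9 genes chosen by symbol: TFRC, STEAP3, SLC11A2 and SLC39A14 for import, FTH1 and FTL for storage, SLC40A1 for export, and IREB2 and ACO1 for iron sensing. The genes lie on chromosomes 3 (TFRC), 2 (STEAP3 and SLC40A1), 12 (SLC11A2), 8 (SLC39A14), 11 (FTH1), 19 (FTL), 15 (IREB2) and 9 (ACO1). They were listed by function and all 9 were found among the 23228 gene symbols of the read count tables. All 9 also passed the filter on low counts, as did 13606 genes in all. The tables come from MDA-MB-231, an established human triple-negative breast cancer cell line grown in DMEM with serum. Cells of both groups received lentivirus and a week of puromycin selection. One group carried a scrambled short hairpin RNA (shRNA, "scramble") and the other an shRNA against SCUBE3, a secreted protein with EGF-like domains ("labelled knockdown"). Each group had 3 libraries of polyadenylated RNA, and since separate cultures are not mentioned in the labels, p-values here reflect variation among libraries, which may be technical. How many hairpin sequences were used, and whether the cells were pools or clones, is not given in the sources used here.

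Cells take up most of their iron as transferrin, which the receptor encoded by TFRC carries into endosomes. There STEAP3 reduces the iron and SLC11A2 (DMT1) moves it into the cytosol, while SLC39A14 (ZIP14) imports iron that is not bound to transferrin. Spare iron is stored inside shells of ferritin heavy (FTH1) and light (FTL) chains, and SLC40A1 (ferroportin) is the known cellular iron exporter. ACO1 (IRP1) and IREB2 (IRP2) bind short RNA hairpins called iron-responsive elements (IREs) when iron is low. A bound IRE in the 5′ UTR holds back translation, and bound IREs in the 3′ UTR of TFRC protect that mRNA from decay. ACO1 carries an iron-sulfur cluster and acts as an aconitase when iron is plentiful, whereas IREB2 is then degraded.

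The IREs are shown because they are the sequences through which the IREB2 and ACO1 proteins act on mRNAs that carry them. Protein-coding transcripts of the 9 genes in GENCODE release 29 were searched on the sense strand for hairpins of this shape. The 6-base loop CAGTGN (with A, C or T last) sat on an upper stem of 5 pairs, G with T allowed. An unpaired C lay between the 5′ side of that stem and a lower stem with at least 4 of 6 pairs. Such 29-base hairpins were found in 4 of the 9 genes, once each in the 5′ UTR of FTH1, FTL and SLC40A1 and 4 times in the 3′ UTR of TFRC. Over 1 transcript of each of 19684 protein-coding genes, 0.142% held a match anywhere, 0.0254% in the 5′ UTR and 0.0711% in the 3′ UTR. Capitals mark the loop.
FTH1, 5′ UTR, bases 59 to 87 of the transcript: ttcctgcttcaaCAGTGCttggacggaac
FTL, 5′ UTR, bases 35 to 63: ctcttgcttcaaCAGTGTttggacggaac
SLC40A1, 5′ UTR, bases 199 to 227: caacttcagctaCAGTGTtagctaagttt
TFRC, 3′ UTR, bases 3388 to 3416: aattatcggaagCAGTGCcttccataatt
TFRC, 3′ UTR, bases 3792 to 3820: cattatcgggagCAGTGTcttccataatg
TFRC, 3′ UTR, bases 3857 to 3885: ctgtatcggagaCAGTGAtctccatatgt
TFRC, 3′ UTR, bases 3904 to 3932: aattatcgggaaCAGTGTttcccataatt
No match in the other 5 genes says only that this pattern is not in those transcripts. Read counts per gene do not show whether a hairpin was bound.

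SCUBE3, the targeted gene, was read at 3.99 ± 0.373 CPM in scramble and 4.06 ± 0.0837 CPM in the libraries labelled knockdown (SD, n = 3). CPM are library-size-normalised counts, that is reads relative to the library's total in genes, scaled by edgeR's TMM factors. The log2 difference was 0.025 ± 0.14 (SE; edgeR quasi-likelihood test, adjusted p = 0.871 by Benjamini-Hochberg). The labels mention a western blot check of SCUBE3 protein, which is not analysed here. Because its RNA was not lower, each direction below is that of the labels, and fold changes are labelled knockdown relative to scramble. Library totals ran from 21348509 to 25520901 reads in genes. The 2 groups differed in most genes, with 85.9% of those tested past an adjusted p of 0.05, 43.4% higher and 42.5% lower, so a call for a single gene is the usual case here. The 6 markers listed for MDA-MB-231 were read in all 6 libraries, and 2 were higher and 4 lower with the knockdown label. Their summed levels were 9289 to 9714 CPM in scramble and 6622 to 6763 CPM in the other group. Of 9 luminal breast markers, 5 were lower and 2 higher, with sums of 608 to 629 and 516 to 525 CPM. ESR1 and PGR had 0 reads in the libraries labelled knockdown, but were low in scramble too, at 0.118 and 0.982 CPM. ESR1 was too low to be tested. FOXA1 fell from 21.8 to 0.0532 CPM, and the 2 higher markers were GATA3 (5.91 to 15.5 CPM) and CDH1 (0.0458 to 2.01 CPM). Fibroblast markers summed to 1.26 to 1.91 CPM in scramble and 17.8 to 20.3 CPM in the other group, with DCN at 0 reads in all 6 libraries. Leukocyte markers summed to 283 to 290.4 and 158 to 169 CPM, nearly all from CD68, while CD14 rose from 0.234 to 6.19 CPM (edgeR adjusted p = 5.64e-20) and CD3E had 0 reads in scramble. Endothelial markers summed to 4.68 to 6.61 and 9.99 to 11.9 CPM. The part of these marker differences in the iron genes was not tested. Of the erythroid markers, which summed to 5.89 to 6.63 and 10.6 to 12.0 CPM, HBB, KLF1 and ALAS2 had 0 reads in all 6 libraries. In RNA from bulk cultures, fewer cells of a type and less RNA per cell cannot be told apart.

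Among the 9 iron genes, the 4 import genes, FTL and ACO1 rose with the knockdown label, IREB2 and FTH1 fell, and SLC40A1 did not pass. That is 8 of 9 past the threshold, 6 higher and 2 lower, a share close to the 85.9% of all genes. The groups did not overlap in CPM for any of the 9, as for 85.8% of all genes tested. The changes were moderate. The median size of the log2 fold change was 0.45 over the 9 genes and 0.64 over all genes tested, and the signed medians were 0.31 and 0.01. STEAP3 alone reached a log2 fold change of 1 in size, which 31.2% of all genes tested reached and passed. In a test against a 1.5-fold change (edgeR glmTreat), STEAP3, SLC39A14, IREB2 and ACO1 passed, 4 of 9, where 45.9% of all genes did.

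**Figure D1:**
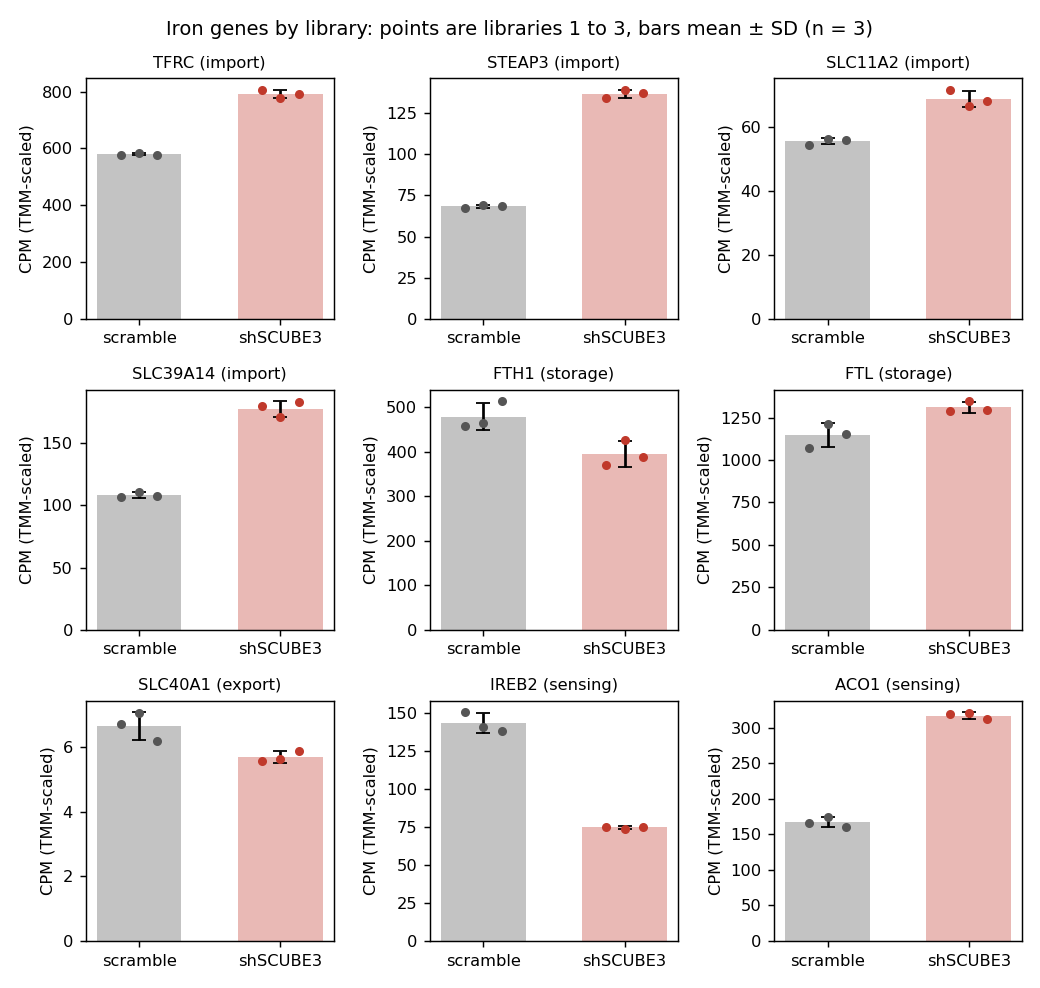
TMM-scaled CPM (y axis, from 0) of the 9 iron genes in scramble and labelled knockdown (shSCUBE3) libraries; points are the 3 libraries of a group in replicate order, bars the mean and error bars the SD. By fold change STEAP3 and ACO1 rise most (68.4 to 137 and 167 to 318 CPM) and IREB2 falls most (143 to 74.5 CPM), while SLC40A1 has the lowest level (6.67 and 5.70 CPM).

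The RNAs of the iron sensors moved in opposite directions. IREB2, the sensor that iron-replete cells degrade, was read at 150.3, 141 and 138 CPM in scramble and 75.2, 73.6 and 74.9 CPM in the libraries labelled knockdown. ACO1, the sensor that doubles as the cytosolic aconitase, was read at 167, 175 and 161 CPM in scramble and 319, 321 and 312 CPM in the other group. All 3 libraries labelled knockdown thus lay far below scramble for IREB2 and far above it for ACO1, with no overlap. On the log2 scale IREB2 changed by -0.94 ± 0.04 (SE; adjusted p = 3.74e-23, edgeR) and ACO1 by 0.93 ± 0.03 (adjusted p = 1.42e-25).

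Set against each other inside each library, which removes any effect of library scaling, the sensor RNAs had changed their proportion. The sensor proteins were not measured here. There were 0.902, 0.807 and 0.857 reads of IREB2 per read of ACO1 in scramble. The libraries labelled knockdown had 0.236, 0.229 and 0.240. The log2 ratio went from -0.23 ± 0.08 to -2.09 ± 0.03 (SD, n = 3), a difference of -1.86, and an exact two-sided permutation test gave p = 0.1, the smallest that 3 against 3 libraries allow. Per kilobase of 1 chosen transcript per gene, IREB2 and ACO1 were at 22.5 ± 1.04 and 22.4 ± 0.938 CPM in scramble, within each other's SD. In the other group they were at 11.7 ± 0.130 and 42.5 ± 0.645 CPM. The SD does not cover the choice of transcript, on which the likeness in scramble depends.

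**Figure D2:**
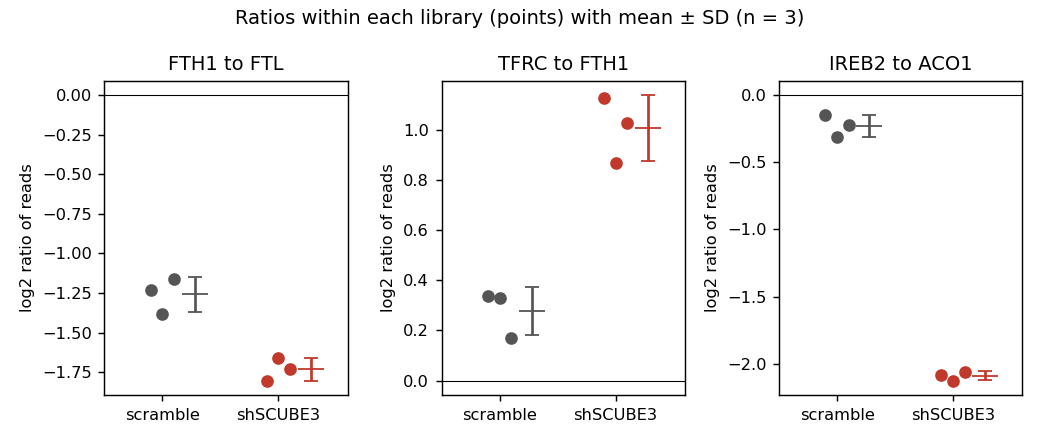
Log2 ratio of raw reads within each library (y axes) for FTH1 to FTL, TFRC to FTH1 and IREB2 to ACO1; points are libraries, and the bar beside them is the mean ± SD (n = 3). The groups are apart in each panel, and the IREB2 to ACO1 panel has the widest gap, from -0.23 to -2.09.

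All 4 import genes rose with the knockdown label, by 1.24-fold to 2-fold, where 43.4% of all genes tested were higher. Of 9 further import genes tested, described below, 4 were higher and 3 lower. TFRC, the transferrin receptor, was read at 578, 584 and 578 CPM in scramble and 806, 778 and 791 CPM in the other group. Its scramble libraries lay within a few CPM of each other, and the lowest labelled knockdown library stood well above them. The log2 fold change was 0.45 ± 0.03 (SE; edgeR quasi-likelihood adjusted p = 4.76e-18). STEAP3, the endosomal iron reductase, was read at 67.4, 69.3 and 68.7 CPM in scramble and 134, 139 and 137 CPM in the libraries labelled knockdown. The groups stood far apart, with a log2 difference of 1.0 ± 0.04 (SE; adjusted p = 2.17e-24, edgeR), the widest of the 9 genes.

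SLC39A14, the importer of iron not bound to transferrin, which also carries zinc and manganese, followed the same direction. It was read at 107, 111 and 108 CPM in scramble and 179.6, 171 and 183 CPM in the other group (log2 fold change 0.71 ± 0.04, SE; edgeR adjusted p = 2.06e-20). SLC11A2, the endosomal iron transporter, changed least of the import genes. Its values were 54.4, 56.2 and 56.1 CPM in scramble and 71.6, 66.7 and 68.0 CPM in the libraries labelled knockdown, again without overlap (log2 fold change 0.31 ± 0.05; edgeR adjusted p = 1.50e-07). Counts per gene do not separate the SLC11A2 transcripts that differ at their 3′ ends.

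**Figure D3:**
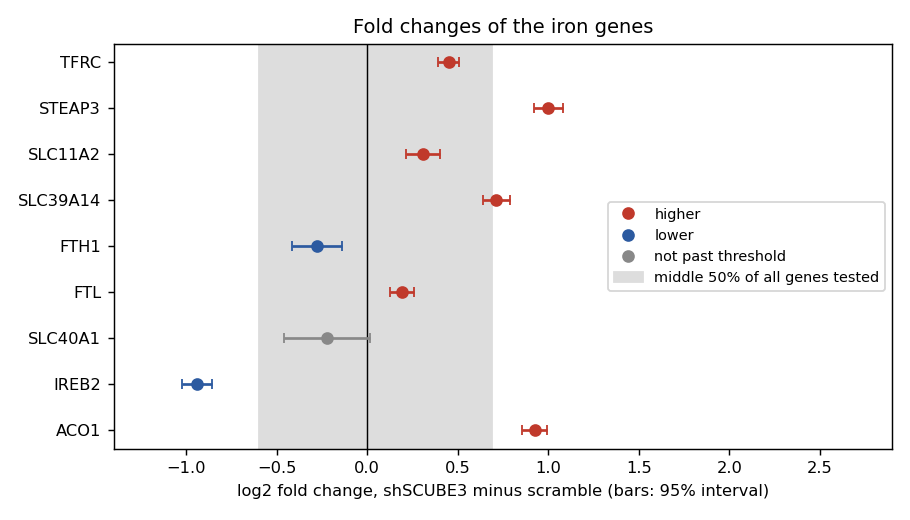
Log2 fold change (x axis, labelled knockdown minus scramble) of each iron gene with its 95% interval from the edgeR fit; the grey band holds the middle 50% of all genes tested. STEAP3 (1.0), ACO1 (0.93) and IREB2 (-0.94) lie outside the band with their whole intervals, and only the interval of SLC40A1 crosses 0.

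The ferritin chains parted by a small amount. FTL, the light chain, was read at 1073, 1213 and 1152 CPM in scramble and 1290.3, 1348 and 1292 CPM in the libraries labelled knockdown. FTH1, the heavy chain with the ferroxidase site, was read at 457, 465 and 514 CPM in scramble and 369, 426 and 389 CPM in the other group. FTL was thus slightly higher and FTH1 slightly lower with the knockdown label. The groups did not overlap, but the gap between the nearest libraries of the groups was smaller than the full range of the scramble libraries. The log2 fold changes were 0.19 ± 0.03 for FTL (SE; edgeR quasi-likelihood adjusted p = 3.27e-06) and -0.28 ± 0.06 for FTH1 (adjusted p = 0.00177).

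Inside each library there were 0.426, 0.384 and 0.446 reads of FTH1 per read of FTL in scramble and 0.286, 0.316 and 0.301 in the other group. The difference in log2 ratio was -0.47 (exact two-sided permutation p = 0.1, n = 3 per group). TFRC was set against FTH1, uptake against storage, with FTH1 now the denominator. There were 1.26, 1.26 and 1.12 reads of TFRC per read of FTH1 in scramble and 2.18, 1.82 and 2.03 in the other group. The difference in log2 ratio was 0.73 (exact two-sided permutation p = 0.1, n = 3 per group). TFRC and FTH1 carry their IREs at opposite ends of the mRNA, as printed above, and FTL carries its IRE at the same end as FTH1. The part of the IREs in these differences was not tested.

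Ferritin counts rest on part of each transcript. Of the 50-base windows of the FTH1 transcript, the length of the reads, 40.4% also occur letter for letter in 16 other GENCODE genes, 15 of them pseudogenes, and for FTL 18.3% occur in 2 pseudogenes. For ACO1 the share was 0.553%, for IREB2 0.127%, and for the other 5 genes 0%. Reads that aligned to several places were counted for no gene. Their line held 34.0% to 34.2% of all counts listed for the scramble libraries and 29.3% to 29.6% for the others. Whether that line counts each read once or each of its alignments is not given in the sources used here. What such multiply aligned reads add to the FTH1 and FTL differences was not tested. The pseudogene FTH1P3 had 9, 6 and 11 reads in scramble and 26, 17 and 15 in the other group. FTH1 also overlaps BEST1 on the other strand over 62.3% of its windows, and BEST1 had at most 1 read in any library. STEAP3 overlaps its antisense transcript STEAP3-AS1 over 11.8% of its windows, and whether reads were counted by strand is not given in the sources used here.

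SLC40A1, the exporter, was the least abundant of the 9 genes and did not pass the test. It had 160, 148 and 138 reads in scramble and 139, 146 and 146 in the other group, or 6.74, 7.06 and 6.21 CPM against 5.57, 5.63 and 5.91 CPM. The log2 fold change was -0.22 ± 0.12 (SE; edgeR quasi-likelihood adjusted p = 0.0720), with a 95% interval from -0.46 to 0.01. Without the third scramble library the value was -0.28 with an edgeR adjusted p of 0.0401, so that library decides the call. A fall of the size seen for IREB2 lies outside the interval.

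Per kilobase of transcript, the order of levels in scramble ran from FTL at 1305 ± 80.0 CPM through FTH1 at 389.7 ± 25.1 and TFRC at 114 ± 0.659 down to SLC40A1 at 1.94 ± 0.125 (SD, n = 3). By these lengths of 1 transcript per gene, SLC39A14 (23.3 ± 0.464), IREB2 and ACO1 followed TFRC, with overlapping ranges of mean ± SD. STEAP3 (17.5 ± 0.250) and SLC11A2 (13.3 ± 0.240) came next. In the libraries labelled knockdown FTL, FTH1 and TFRC again came first, at 1492 ± 37.0, 321 ± 23.6 and 155 ± 2.80 CPM per kilobase. They were followed by ACO1, SLC39A14 (38.3 ± 1.34), STEAP3 (35 ± 0.616) and SLC11A2 (16.5 ± 0.609), with IREB2 now below them and SLC40A1 last at 1.66 ± 0.0520. The same CPM were also divided by the number of windows found in no other gene, overlapping genes such as BEST1 aside. FTL and FTH1 then stood at 1693 ± 104 and 681 ± 43.9 CPM per kilobase in scramble, in the same order.

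Of 12 further genes of the transferrin cycle and of ferrous import, 9 could be tested. Of these 4 rose and 3 fell, which is no more than the 85.9% called among all genes, and their median log2 fold change was 0.08 against 0.01 for all genes. HFE, a partner of the transferrin receptor, rose from 6.23 ± 0.551 to 17.5 ± 1.26 CPM (SD, n = 3; edgeR adjusted p = 1.49e-17). MCOLN1, an endolysosomal cation channel that lets out iron, rose from 14.8 ± 1.77 to 38.1 ± 1.02 CPM, and the ferric reductase gene CYBRD1 from 95.5 ± 1.43 to 157 ± 2.46 CPM. STEAP2, a relative of STEAP3, fell from 15.3 ± 0.299 to 6.94 ± 0.704 CPM. SLC39A8, the nearest relative of SLC39A14, stood at 58.5 ± 1.56 and 62.0 ± 2.03 CPM (edgeR adjusted p = 0.0984) and STEAP1 at 16.4 ± 1.37 and 14.7 ± 1.19 CPM (adjusted p = 0.0750), neither past the threshold.

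Chaperones that hand iron to ferritin were lower. PCBP1 fell from 534 ± 7.46 to 378 ± 3.73 CPM (edgeR adjusted p = 4.95e-19) and PCBP2 from 475 ± 15.9 to 233 ± 3.66 CPM (adjusted p = 3.13e-28; SD, n = 3). NCOA4, the receptor that delivers ferritin to lysosomes for breakdown, rose from 211 ± 3.23 to 253 ± 3.74 CPM, and HERC2, a ubiquitin ligase linked to NCOA4 turnover, fell from 160.4 ± 2.77 to 112 ± 5.60 CPM. These 4 were all that could be tested among 8 genes of ferritin handling and of export partners. Among the copper oxidases that work beside ferroportin, CP had 8, 3 and 9 reads in scramble and 2, 0 and 4 in the other group, HEPH had 1 read in all and HEPHL1 had 0.

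FBXL5, the iron-binding subunit of the ligase that marks IREB2 for degradation, rose from 48.8 ± 0.378 to 78.8 ± 0.454 CPM (SD, n = 3; edgeR adjusted p = 3.90e-17). Its partner SKP1 rose slightly, from 218 ± 8.48 to 243 ± 2.36 CPM, and the cullin gene CUL1 stood at 145 ± 2.81 and 145 ± 6.26 CPM (log2 fold change 95% interval -0.07 to 0.08). HAMP, which encodes hepcidin, and HFE2 had 0 reads in all 6 libraries, and BMP6, a hepcidin-inducing ligand in liver, fell from 2.38 ± 0.583 to 0.660 ± 0.116 CPM. NEO1, a receptor that binds the HFE2 product, fell from 108 ± 0.887 to 20.4 ± 1.84 CPM (edgeR adjusted p = 1.31e-32). Of the 9 genes of iron sensing and the hormone axis, 5 could be tested, 2 were higher and 2 lower, beside 85.9% called among all genes. Lipocalin 2 (LCN2), which captures iron-laden siderophores, had 0 reads in scramble and 619, 713 and 653 in the other group, at least 586-fold higher against a floor of 3 reads over the scramble group. BDH2, an enzyme linked to mammalian siderophore synthesis, rose from 5.65 ± 0.636 to 7.76 ± 0.775 CPM (edgeR adjusted p = 0.000619), while SLC22A17, a receptor described for lipocalin 2, had 1 read in all 6 libraries.

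**Figure D4:**
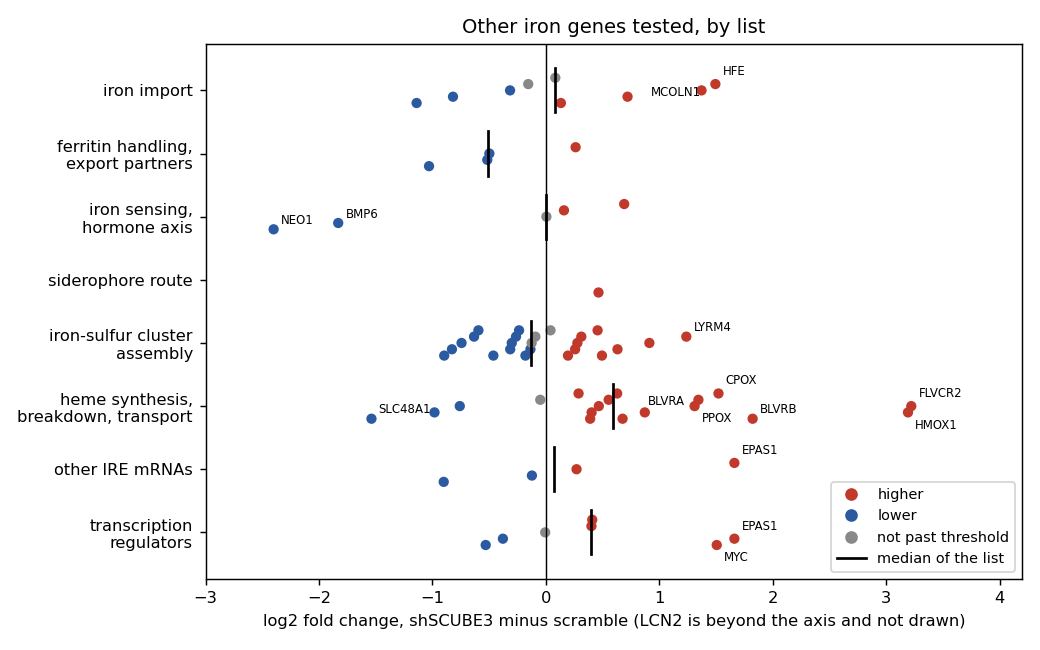
Log2 fold change (x axis, labelled knockdown minus scramble) of each tested gene in 8 lists of other iron genes, coloured by call, with the list's median as a bar where more than 1 gene is drawn; names mark values of at least 1.2 in size. The heme list has 14 of 18 genes higher, whereas the iron-sulfur list straddles 0.

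In the heme list 14 of 18 tested genes rose and 3 fell, where 43.4% of all genes tested rose and 42.5% fell. The list's median log2 fold change was 0.59 against 0.01 for all genes. HMOX1, the heme oxygenase that frees iron from heme, rose from 2.12 ± 0.430 to 19.3 ± 1.08 CPM (SD, n = 3), or 3.19 ± 0.12 in log2 units (SE; adjusted p = 3.99e-25, edgeR). The biliverdin reductase genes that act after it rose too, BLVRB from 11.9 ± 0.737 to 42.0 ± 1.49 CPM and BLVRA from 21.0 ± 0.839 to 53.2 ± 0.885 CPM. CPOX, a mitochondrial enzyme of heme synthesis, rose from 42.9 ± 2.89 to 123 ± 1.2 CPM. ALAS1, the first and rate-limiting enzyme, stood at 85.3 ± 2.17 and 82.5 ± 2.22 CPM (edgeR adjusted p = 0.264; log2 fold change 95% interval -0.13 to 0.04).

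Of 24 iron-sulfur cluster genes, 9 were higher, 12 lower and 3 not past the threshold, a share of calls close to the 85.9% of all genes, with a median log2 fold change of -0.13. LYRM4, a subunit of the mitochondrial cysteine desulfurase complex, rose from 17.6 ± 0.130 to 41.5 ± 1.74 CPM (SD, n = 3; edgeR adjusted p = 5.45e-21). CIAO1, which delivers clusters in the cytosol, fell from 188 ± 1.55 to 121 ± 1.25 CPM, the mitochondrial glutaredoxin gene GLRX5 from 93.3 ± 1.35 to 55.7 ± 1.2 CPM, and the chaperone gene HSPA9 from 607 ± 4.83 to 441 ± 7.81 CPM. BOLA3 stood at 32.6 ± 2.22 and 29.8 ± 1.71 CPM and FDX1 at 29.6 ± 2.02 and 30.4 ± 1.87 CPM, neither past the threshold (edgeR adjusted p = 0.0566 and 0.549).

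Of 5 other mRNAs known to carry an IRE, 4 could be tested, 2 higher and 2 lower. EPAS1 (HIF-2 alpha) rose from 28.7 ± 1.73 to 90.6 ± 3.71 CPM (SD, n = 3; edgeR adjusted p = 9.89e-28). CDC14A fell from 22.9 ± 0.342 to 12.3 ± 1.36 CPM and CDC42BPA from 193 ± 9.25 to 177 ± 6.53 CPM. The hairpin pattern given above matched 24 genes outside the 9, of which 13 could be tested, 5 higher and 8 lower. Among transcription regulators of iron genes, 4 of 7 were higher and 2 lower. Over all genes tested these shares were 43.4% and 42.5%. MYC, which is known to act on TFRC and ferritin genes, rose from 70.6 ± 5.87 to 200.1 ± 6.08 CPM, and HIF1A fell from 673 ± 16.4 to 466 ± 5.42 CPM. KEAP1 rose from 106 ± 4.13 to 141 ± 3.62 CPM, while NFE2L2, the antioxidant regulator of ferritin and HMOX1 that KEAP1 restrains, stood at 134 ± 8.51 and 133 ± 4.62 CPM (edgeR adjusted p = 0.885; log2 fold change 95% interval -0.09 to 0.08).

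By Euclidean distance between centred log2(CPM + 1) values over the 6 libraries, the genes nearest to STEAP3, the iron gene with the widest change, were BET1, CD81 and WIPI2, at distances of 0.0379, 0.0434 and 0.0474. They went from 14.7 ± 0.185 to 30.6 ± 0.280, from 116 ± 2.75 to 228 ± 1.78 and from 57.7 ± 1.44 to 113 ± 1.41 CPM (SD, n = 3). With 2 groups of libraries, such a likeness says little beyond a similar fold change.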

How the data were processed

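Each library came as 1 deposited table of whole-number read counts by gene symbol, which the authors had not normalised. The submitters' processing notes name bcl2fastq, TopHat2 2.0.8b, HTSeq and the build hg19. Reads were single, 50 bases long, from a stranded mRNA kit, per the labels' protocols. The strand option of HTSeq and its gene annotation were not given in the sources used here. Lines for reads given to no gene entered neither library sizes nor tests.

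Samples were grouped by their titles. After filterByExpr and TMM scaling, edgeR 4.0.16 under R 4.3.3 fitted group alone by robust quasi-likelihood, with two-sided F tests and Benjamini-Hochberg adjustment over all 13606 genes and a threshold of 0.05. SEs were derived from the log2 fold change and F. Ratios of 2 genes within a library were compared with an exact permutation test. The biological coefficient of variation was 3.21%. Within a group, every pair of libraries exceeded counting noise (1.67 to 3.45 for chi-square over its degrees of freedom), and each was kept as its own replicate. In simulated counts for 13542 genes, only 48 genes were changed 1.2-fold, 50 were changed 1.5-fold and 50 were changed 2-fold. The fit recovered 54.2%, 84% and 94% of them. Few genes changed in that simulation and all shared 1 dispersion, unlike in the data, so these shares need not hold for this comparison.

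The 9 genes and the lists of other iron genes were chosen with earlier results of these data known. Named genes are the 9, SCUBE3, per list the 4 smallest adjusted p-values, the up to 2 most abundant genes that missed the threshold and any read in 1 group alone at a mean of at least 1 CPM, and the 3 nearest patterns (of at least 5 CPM) to the widest change. SLC22A17, CP, HEPH, HEPHL1, HAMP, HFE2, FTH1P3, BEST1, CD14, CD68, FOXA1, GATA3 and CDH1 were named after their values were seen. Of the listed symbols FAM132B was not matched. A few listed genes are not reported here by name. Transcripts are from GENCODE release 29 on GRCh38, a build other than that of the counts, and were used for sequences and lengths only. One transcript per gene was used, the longest with the best APPRIS label.

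The fit was repeated with other scalings (size factors of DESeq2, upper quartile, library totals), other filters (none, or 1 CPM in 3 libraries), other tools (DESeq2 1.42.0 and limma 3.58.1 with voom), a block for replicate number, 1 library fewer, a 0.01 threshold, and a test against 1.5-fold. Ratios were also taken from CPM + 1.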

Additional observations from a re-analysis of the deposited data

How the results depend on the processing

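Each of the 9 iron genes kept its direction under all 16 alternatives. The 8 calls held under all but the test against a 1.5-fold change, in which 4 of the 9 and 6251 of all genes passed, and FTH1 (-0.28), FTL (0.19), TFRC (0.45) and SLC11A2 (0.31) did not (each edgeR adjusted p = 1). That test also left 4 genes of the transferrin cycle and ferrous import, 1 of ferritin handling, 1 of the siderophore route, 5 of iron-sulfur assembly, 11 of heme, 2 other IRE mRNAs and 2 transcription regulators. With single libraries left out, SLC40A1 ran from -0.28 to -0.19, passing without the third scramble library alone, and SCUBE3, never past the threshold, ran from -0.050 to 0.080, the lowest without the third scramble library. The number of iron genes past the threshold ran from 8 to 9, and of all genes from 11450 to 11630. Library totals in place of TMM moved the median log2 fold change of all genes from 0.01 to 0.06. Same-numbered libraries deviated together only weakly (correlations 0.0779, 0.0623 and -0.00188), beside -0.0908 to 0.0304 for libraries of unlike number. With 3 libraries a group, these values cannot tell whether a number stands for a shared batch. With the replicate number as a block, 11706 genes and 8 of the 9 passed, and SLC40A1 had an edgeR adjusted p of 0.0812. The ratio differences under that pairing were -0.47 for FTH1 to FTL, 0.73 for TFRC to FTH1 and -1.86 for IREB2 to ACO1 (exact sign-flip p = 0.25 each, the smallest that 3 pairs allow). SLC40A1, with 138 to 160 reads a library, is the gene whose precision depth limits.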
